A study of Homo sapiens with 6 samples.

Results

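The genes described here are 10 human tubulin genes: the alpha-tubulin genes TUBA1A, TUBA1B, TUBA1C and TUBA4A, the beta-tubulin genes TUBB, TUBB2A, TUBB3, TUBB4B and TUBB6, and the gamma-tubulin gene TUBG1. They were taken by symbol from the 26484 genes in the deposited count tables. Their RNA was read in MCF10CA1a, a malignant human breast epithelial line descended from MCF10A, on soft gel dishes of 8000 Pa or 500 Pa. Dishes of both stiffnesses were coated with Matrigel (growth factor-reduced, 0.14 mg/ml). Medium was renewed on day 4 in both, and TRIzol extraction followed on day 5. Per the labels the RNA is cytosolic, and each stiffness has 3 biological replicates, all of this 1 cell line.

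Alpha- and beta-tubulin pair into the dimers from which microtubules are built, and each is encoded by several genes whose products, the isotypes, differ mainly in their acidic tails. Those tails face outwards from the microtubule and carry most of the modifications that motors and other microtubule proteins recognise. Gamma-tubulin sits at microtubule minus ends, where it starts new filaments. Cells also adjust tubulin mRNA to the pool of free dimer through a degradation pathway that acts on tubulin mRNAs during translation.

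All 10 genes passed the filter on low counts, as did 11517 genes in all. None was called different between 8000 Pa and 500 Pa by edgeR's quasi-likelihood test with Benjamini-Hochberg adjustment at an FDR of 0.05, whether stiffness was fitted alone or with the replicate number as a block. Stiffness alone called 0.0% of all tested genes in either direction, and the block called 0.26% higher and 0.269% lower at 8000 Pa. DESeq2 also called none of the 10. Without the block it called 0.0521% of all genes higher and 0.00868% lower, and with the block 0.191% higher and 0.174% lower. At an unadjusted p under 0.05 there was 1 tubulin gene (TUBA1A) among 282 genes with stiffness alone, and 2 (TUBA1A and TUBB3) among 1222 with the block. The libraries held 10360236, 9068926 and 10739449 counts at 8000 Pa and 18779742, 8526378 and 8305601 counts at 500 Pa, in the order of replicates 1 to 3. The tubulin genes together took from 0.519% to 0.737% of a library's counts. Levels below are TMM-scaled CPM, that is, counts relative to library size, given in that same replicate order.

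TUBA1A and TUBB3, both best known from neurons, had the largest differences of the 10 genes, each lower at 8000 Pa, and neither passed with stiffness alone or with the block. TUBA1A passed in the fit with a GC offset and block and in the block fit without replicate 2, as given below. It did not pass in the block fits without replicate 1 or without replicate 3. TUBA1B, TUBA1C, TUBB4B and TUBG1 took most of the tubulin counts, with the reservation given below for TUBB. Their differences were smaller than their standard errors or close to them.

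**Figure D1:**
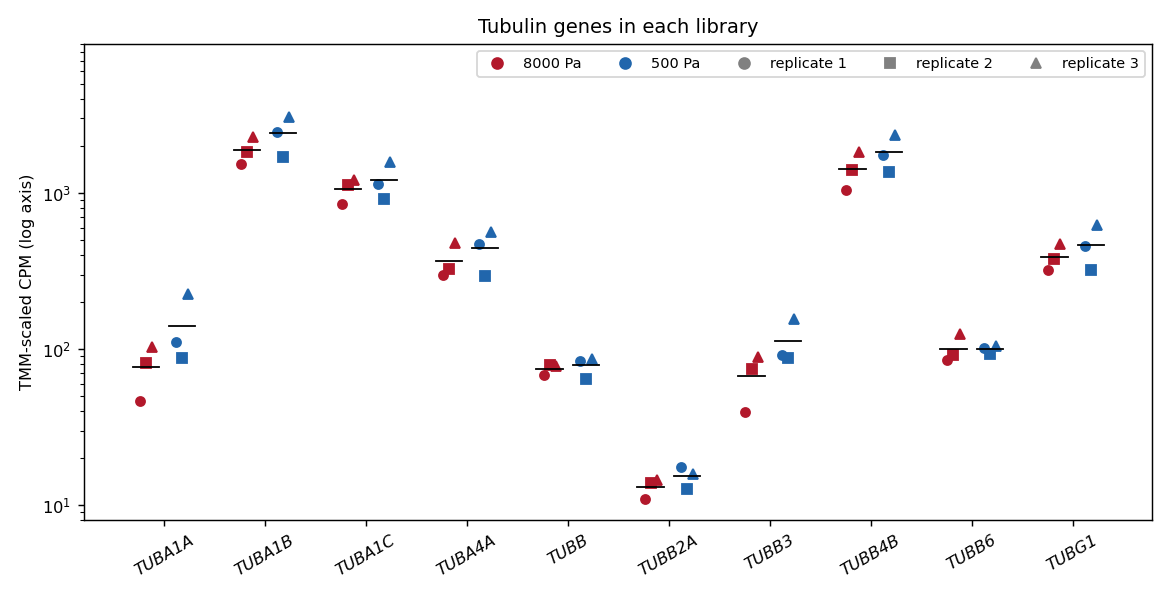
TMM-scaled CPM of each tubulin gene on a log axis, with 8000 Pa libraries in red to the left of 500 Pa libraries in blue. Circles, squares and triangles are replicates 1, 2 and 3, and bars are means of 3 libraries. The 2 stiffnesses overlap for all 10 genes, and 500 Pa replicate 3 is the highest library for 8 of them.

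TUBA1B is the alpha isotype that most dividing cells use, and the gene lies at chr12:49127782-49131397 on the minus strand of GRCh38. Its level was 1536, 1820 and 2292 CPM at 8000 Pa and 2468, 1707 and 3053 CPM at 500 Pa. The groups overlapped, with the lowest library at 8000 Pa and the highest at 500 Pa. The log2 fold change of 8000 Pa over 500 Pa was -0.36 ± 0.28 (SE; edgeR, adjusted p = 0.9999).

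TUBA1C, a close relative at chr12:49188736-49274603 on the plus strand, had 847, 1122 and 1210 CPM at 8000 Pa and 1145, 918 and 1576 CPM at 500 Pa. Its log2 fold change was -0.20 ± 0.27 (SE; edgeR, adjusted p = 0.9999). The sign depended on 1 library, since the log2 fold change without 500 Pa replicate 3 was 0.08. TUBA4A, at chr2:219249711-219278170 on the minus strand, encodes an alpha-tubulin that lacks the encoded final tyrosine of most alpha-tubulins. It had 297, 327 and 478 CPM at 8000 Pa and 470, 292 and 563 CPM at 500 Pa, so replicates 1 and 3 were lower at 8000 Pa and replicate 2 was higher. Its log2 fold change was -0.27 ± 0.30 (SE; edgeR, adjusted p = 0.9999).

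TUBA1A is the main alpha-tubulin of developing neurons and lies at chr12:49184796-49189324 on the minus strand. Its level was 46.7, 81.6 and 103 CPM at 8000 Pa and 110.4, 87.6 and 224 CPM at 500 Pa. Within each replicate number the 8000 Pa library was the lower of the pair, by log2 values of -1.23, -0.10 and -1.12. Across numbers the groups overlapped, because 8000 Pa replicate 3 exceeded 500 Pa replicate 2. With stiffness alone the log2 fold change was -0.87 ± 0.38 (SE; edgeR, adjusted p = 0.9999). The block gave -0.83 ± 0.23 (SE; edgeR, adjusted p = 0.0647), above the threshold. An offset for GC content together with the block gave -0.84 ± 0.19 (SE; edgeR, adjusted p = 0.0229), which passed. That fit called 0.382% of all genes higher and 0.347% lower. Leaving out replicate 2, the pair with the smallest difference, also passed with the block, at -1.18 (edgeR, adjusted p = 0.0169). In that fit 81 genes were called in all. Leaving out replicate 1 with the block did not pass, at -0.60 (edgeR, adjusted p = 0.351), nor did leaving out replicate 3, at -0.62. Without 500 Pa replicate 3 alone, the fit with stiffness alone gave a log2 fold change of -0.32.

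The alpha genes are close to each other in sequence. Over the whole coding sequence, read from GENCODE 29, TUBA1A matched TUBA1B at 97.2% of 1356 aligned bases and TUBA1C at 96.3% of 1350, against 85.0% for TUBA4A. This likeness limits how well reads can be assigned. Of the 50-base words in the TUBA1A coding sequence, 58.6% also occur in the transcripts of another gene, 46.6% in TUBA1B. For TUBA1B the share was 75.7%, for TUBA1C 49.0% and for TUBA4A 8.55%. TUBA1A and TUBA1C also share 490 exon bases on opposite strands, 14.3% of the TUBA1A exons and 10.6% of the TUBA1C exons. How reads with several matches were counted, and whether strand was used, is not given in the sources used here, so the split of reads among these 3 genes is uncertain.

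**Figure D2:**
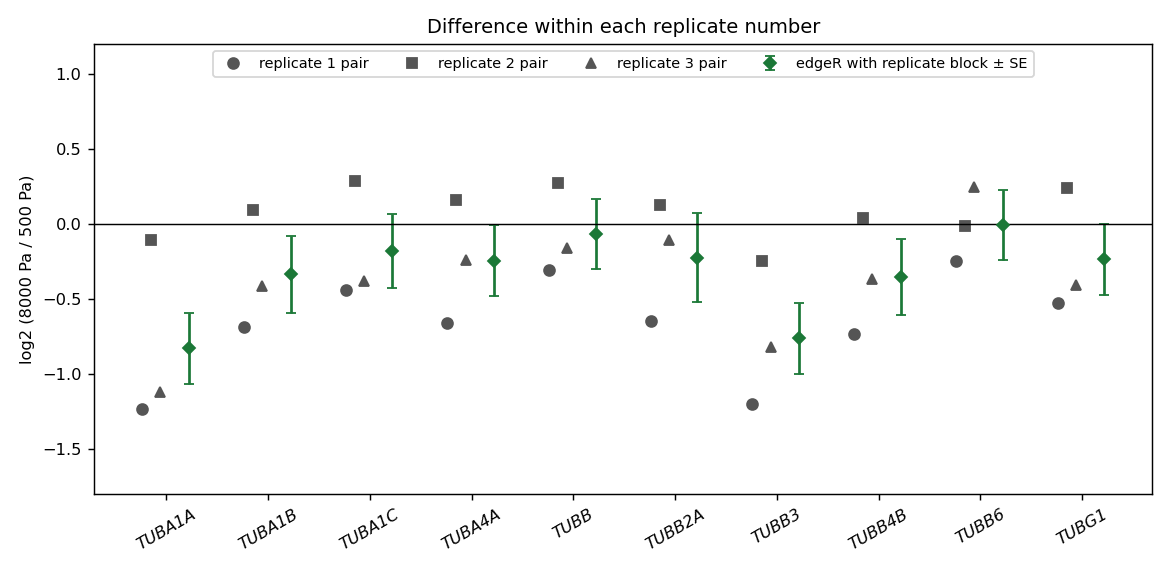
Log2 ratio of 8000 Pa over 500 Pa within each replicate number (grey circles, squares and triangles for replicates 1, 2 and 3) and the edgeR estimate with the replicate number as a block (green, ± SE). TUBA1A and TUBB3 are below 0 in all 3 pairs, while replicate 2 lies above 0 for 7 of the 10 genes.

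TUBB4B had the highest level of the beta genes as counted here, with the reservation given below for TUBB, and is widely expressed in human tissues, ciliated ones among them. The gene lies at chr9:137241213-137243707 on the plus strand and had 1050, 1403 and 1823 CPM at 8000 Pa and 1743, 1362 and 2350 CPM at 500 Pa. Its groups overlapped, and the pair ratios had log2 values of -0.73, 0.04 and -0.37. The log2 fold change was -0.35 ± 0.29 (SE; edgeR, adjusted p = 0.9999), and -0.13 ± 0.17 (SE; edgeR, adjusted p = 0.834) with the GC offset and block.

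TUBB3, the class III beta-tubulin, is a neuronal marker that is also reported in many carcinomas. It lies at chr16:89921392-89938761 on the plus strand. Its level was 39.8, 74.0 and 88.5 CPM at 8000 Pa and 92.0, 87.9 and 156 CPM at 500 Pa. The groups overlapped only through 8000 Pa replicate 3, which was just above 500 Pa replicate 2. Each 8000 Pa library was lower than its same-numbered 500 Pa library, by log2 values of -1.20, -0.25 and -0.82. The log2 fold change was -0.73 ± 0.34 with stiffness alone (SE; edgeR, adjusted p = 0.9999) and -0.76 ± 0.23 with the block (SE; edgeR, adjusted p = 0.117). With the GC offset and block it was -0.50 ± 0.16 (SE; edgeR, adjusted p = 0.174). The annotation places a readthrough gene, AC092143.1, over 35.8% of the TUBB3 exon bases on the same strand, and reads there cannot be told apart by position.

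The last 45 coding bases before the stop codon, which carry the acidic tail, are shown for TUBB3 and TUBB4B because these genes differ there, TUBB3 having 5 glutamate codons of 15 and TUBB4B having 10. Capitals mark in-frame GAA and GAG codons, which encode glutamate. The windows, from GENCODE 29 on GRCh38, are chr16:89935757-89935801 and chr9:137243509-137243553, both on the plus strand.
TUBB3: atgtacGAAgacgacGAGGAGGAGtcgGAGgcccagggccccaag
TUBB4B: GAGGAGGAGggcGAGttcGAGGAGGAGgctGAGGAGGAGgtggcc
TUBB3 alone of the 5 beta genes ends in a lysine codon (aag). TUBB had 9 glutamate codons in its window, TUBB2A had 8 and TUBB6 had 7.

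TUBB6, the class V beta-tubulin, lies at chr18:12307669-12344320 on the plus strand. It had 85.5, 91.9 and 125 CPM at 8000 Pa and 102, 92.8 and 105 CPM at 500 Pa. Its highest and its lowest library were both at 8000 Pa. The log2 fold change was 0.01 ± 0.26 (SE; edgeR, adjusted p = 0.9999), -0.01 with the block and 0.26 ± 0.17 with the GC offset and block (SE; edgeR, adjusted p = 0.553). Of its exon bases, 20.3% also lie in AFG3L2 on the other strand.

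TUBB2A, a brain-enriched beta isotype at chr6:3153669-3157526 on the minus strand, was the least abundant of the 10. It had 11.0, 13.8 and 14.6 CPM at 8000 Pa and 17.5, 12.6 and 15.7 CPM at 500 Pa, from 110 to 314 counts per library. Its log2 fold change was -0.22 ± 0.33 (SE; edgeR, adjusted p = 0.9999). TUBB2A shares 72.4% of its 50-base coding words with TUBB2B, which held 1 count in 8000 Pa replicate 1 and none in the other libraries.

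TUBB, the class I beta-tubulin that is usually the common form in cultured cells, lies at chr6:30720201-30725426 on the plus strand. Its level was 67.9, 78.5 and 77.7 CPM at 8000 Pa and 84.2, 64.7 and 86.9 CPM at 500 Pa. The log2 fold change was -0.07 ± 0.26 (SE; edgeR, adjusted p = 0.9999), and it was 0.05 without 500 Pa replicate 3 and 0.09 with libraries scaled to their totals alone. Of the 50-base words in the TUBB coding sequence, 33.4% also occur in the transcripts of another gene, 29.2% in TUBBP1. The absolute level of TUBB has a further limit. Its 20 nearest protein-coding genes in the tables had a median of only 0.278 CPM over the 6 libraries, and none of them exceeded 10 CPM. For the other 9 tubulin genes the same median ran from 3.31 to 24.5 CPM, with 7 to 12 neighbours above 10 CPM. FLOT1, a widely expressed membrane scaffold gene next to TUBB, had 2.73 CPM, and IER3 had 0.0756 CPM. This look at neighbours was made after the TUBB values were seen, and the reason for the low counts around the gene was not tested. TUBB shares and ratios are therefore given with that reservation.

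Gamma-tubulin is represented by TUBG1, at chr17:42609676-42615234 on the plus strand. Its level was 319, 376 and 469 CPM at 8000 Pa and 459, 319 and 623 CPM at 500 Pa. The groups overlapped, and the lowest library of each stiffness had nearly the same level. The log2 fold change was -0.27 ± 0.29 (SE; edgeR, adjusted p = 0.9999), and 0.04 without 500 Pa replicate 3. Of its 50-base coding words, 34.7% occur in TUBG2, the second gamma-tubulin gene, which had 29.6 ± 5.94 CPM at 8000 Pa and 38.3 ± 6.64 CPM at 500 Pa (SD, n = 3 each).

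Per kilobase of exon, averaged over the 6 libraries, the levels ran from TUBB4B (768 CPM per kb) and TUBA1B (600 CPM per kb) through TUBA1C (245 CPM per kb), TUBG1 (177 CPM per kb) and TUBA4A (99.1 CPM per kb). TUBA1A (31.9 CPM per kb), TUBB6 (24.4 CPM per kb), TUBB (22.8 CPM per kb) and TUBB3 (20.3 CPM per kb) followed, and TUBB2A was last with 8.23 CPM per kb. Neighbours in this order overlapped in their ranges over libraries, except TUBA1B with TUBA1C and TUBA4A with TUBA1A. With the longest transcript as the length, TUBB3 and TUBB changed places and the other ranks were kept. At this scale the alpha genes summed to 1.18 ± 0.0771 times the beta genes at 8000 Pa and 1.15 ± 0.0583 times at 500 Pa (SD, n = 3 each).

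The summed level of the 4 alpha genes was 3387 ± 679 CPM at 8000 Pa and 4205 ± 1206 CPM at 500 Pa (SD, n = 3 each). For the 5 beta genes it was 1681 ± 437 CPM at 8000 Pa and 2124 ± 552 CPM at 500 Pa (SD, n = 3 each). Both sums had lower means at 8000 Pa, and the groups overlapped. The log2 ratios of the same-numbered pairs had an SD of 0.40 for alpha and 0.37 for beta. The ratios of the means had log2 values of -0.31 and -0.34. The alpha and beta sums thus differed by nearly the same ratio between the stiffnesses. In bulk RNA, fewer cells with a transcript and less of it per cell cannot be told apart.

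The share of TUBA1A within the alpha genes and of TUBB3 within the beta genes was lower in every 8000 Pa library than in any 500 Pa library. As a share of the alpha genes per kilobase, TUBA1A made up 1.95%, 2.79% and 2.87% at 8000 Pa and 2.97%, 3.31% and 4.69% at 500 Pa. As a share of the beta genes, TUBB3 made up 1.62%, 2.27% and 2.11% at 8000 Pa and 2.29%, 2.78% and 2.92% at 500 Pa. These were the 2 shares of 9 whose groups did not overlap, and for TUBB3 the nearest libraries were 2.27% and 2.29%. Against TUBA1B alone TUBA1A did overlap, with 3.04, 4.48 and 4.50 per 100 TUBA1B counts at 8000 Pa and 4.47, 5.13 and 7.35 at 500 Pa. TUBB3 did not, with 3.79, 5.27 and 4.86 per 100 TUBB4B counts at 8000 Pa and 5.28, 6.45 and 6.66 at 500 Pa. For levels of single genes, 4.02% of all tested genes did not overlap in the higher direction and 2.85% in the lower, and no tubulin gene was among them. How often shares within other gene families fail to overlap was not counted, so those percentages are no background for the shares. Shares within a family also depend on each other. The shares were given no test. With the longest transcript as the length, TUBA1A was 2.69%, 3.81% and 3.94% at 8000 Pa and 4.12%, 4.57% and 6.43% at 500 Pa, again without overlap. The TUBB3 share, 8000 Pa minus 500 Pa, was -0.66 percentage points with exon length and -1.35 with the longest transcript. The TUBA1A difference was -1.12 points, and -0.61 without 500 Pa replicate 3.

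TUBA1B held 60.7% ± 1.04 of the alpha genes at 8000 Pa and 62.2% ± 1.31 at 500 Pa (SD, n = 3 each). TUBA1C held 26.5% ± 1.74 at 8000 Pa and 24.3% ± 1.42 at 500 Pa, and TUBA4A 10.3% ± 0.890 at 8000 Pa and 9.91% ± 0.672 at 500 Pa (SD, n = 3 each). Every beta share has TUBB in its denominator, so the low counts around TUBB bear on all of them, and any uncounted TUBB reads would make the other shares too high. Among the beta genes TUBB4B held 90.5% ± 0.763 at 8000 Pa and 91.2% ± 0.866 at 500 Pa (SD, n = 3 each). TUBB6 held 3.33% ± 0.371 at 8000 Pa and 2.66% ± 0.523 at 500 Pa, and TUBB 3.09% ± 0.607 at 8000 Pa and 2.53% ± 0.344 at 500 Pa (SD, n = 3 each). TUBB2A held 1.04% ± 0.136 at 8000 Pa and 0.966% ± 0.191 at 500 Pa (SD, n = 3 each). The groups overlapped for each of these shares.

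**Figure D3:**
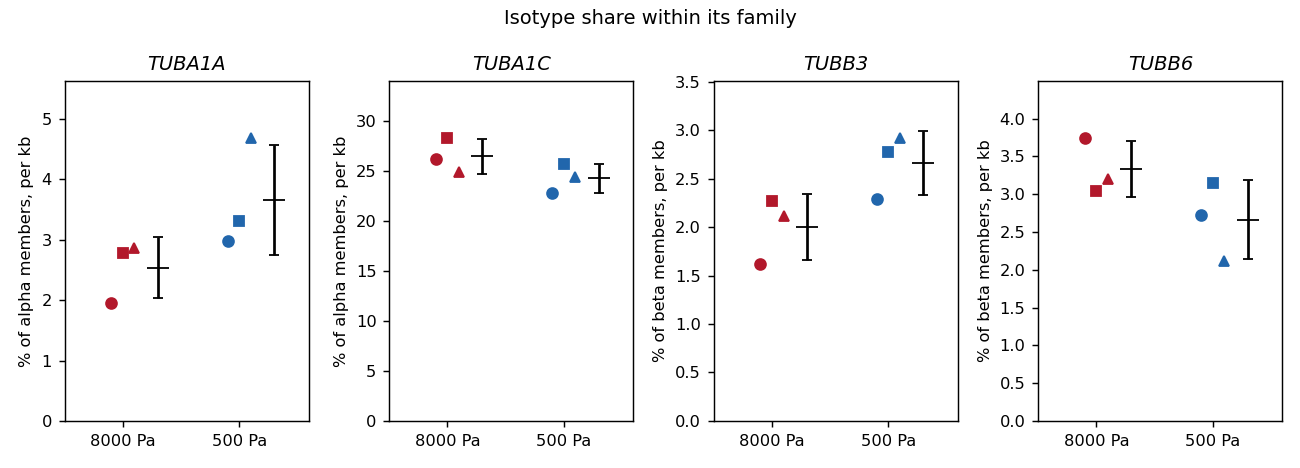
Share of 4 isotypes within their family, in percent of the counts per kilobase of the alpha genes (TUBA1A, TUBA1C) or beta genes (TUBB3, TUBB6), with 8000 Pa in red and 500 Pa in blue. Circles, squares and triangles are replicates 1, 2 and 3, and black marks are mean ± SD of 3 libraries. TUBA1A and TUBB3 shares are lower in every 8000 Pa library than in any 500 Pa library, while TUBA1C and TUBB6 overlap.

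The promoters of TUBA1A and TUBB3 are shown because these genes had the largest differences. Their levels were also the most correlated of any alpha and beta gene pair over the 6 libraries (Pearson r of log2 CPM = 0.979, a description). Each is the 250 bases before the RefSeq start on GRCh38.p14, chr12:49189081-49189330 on the minus strand for TUBA1A and chr16:89923092-89923341 on the plus strand for TUBB3. Capitals mark the CCAAT box, the GC box core GGGCGG, and the TATA element TATAA, each on either strand and without overlap between motifs in these windows.
TUBA1A: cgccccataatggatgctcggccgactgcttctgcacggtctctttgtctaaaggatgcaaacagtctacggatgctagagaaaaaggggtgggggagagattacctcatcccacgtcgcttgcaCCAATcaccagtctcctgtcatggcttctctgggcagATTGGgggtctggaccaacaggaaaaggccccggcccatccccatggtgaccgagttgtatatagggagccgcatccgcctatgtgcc
TUBB3: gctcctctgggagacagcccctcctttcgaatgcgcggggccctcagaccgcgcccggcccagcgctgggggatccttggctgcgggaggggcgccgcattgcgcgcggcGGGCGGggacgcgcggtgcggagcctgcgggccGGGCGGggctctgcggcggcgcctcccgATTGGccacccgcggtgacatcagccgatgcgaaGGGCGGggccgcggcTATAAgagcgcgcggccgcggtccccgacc
TUBA1A holds 2 CCAAT boxes and neither of the other motifs. TUBB3 holds 1 CCAAT box, 3 GC boxes and 1 TATA element. Among the 10 tubulin promoters 6 hold a CCAAT box, 8 a GC box and 5 a TATA element, against 32.0%, 42.5% and 19.0% of 34943 RefSeq promoter windows of this length. A match is only a run of letters in this window. GENCODE 29 also lists transcripts of both genes that start further upstream than these RefSeq starts.

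The replicate pairs did not behave alike. All 10 tubulin genes were lower at 8000 Pa in the replicate 1 pair, with a median log2 ratio of -0.65 beside 0.03 for all tested genes. In the replicate 2 pair 3 of 10 were lower, with a median of 0.11 beside -0.02 for all genes. In the replicate 3 pair 9 of 10 were lower, with a median of -0.37 beside -0.02. Over the fit with stiffness alone 9 of 10 fold changes were below 0, where 48.8% of all tested genes were, and their median was -0.27. With the block 10 of 10 were below 0, where 50.6% of all genes were. Libraries scaled to their totals alone shifted the median of all genes to 0.16, and 8 of the 10 tubulin genes stayed below 0, with TUBB and TUBB6 above it. The median of the tubulin genes was then -0.10.

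Base composition moved with the replicate 1 pair. Across 11003 genes the log2 ratio of that pair ran against transcript GC content with a Spearman correlation of -0.606, a description across genes of 1 pair, and the other pairs gave 0.0636 and 0.0190. The tubulin transcripts have 51.6% to 61.2% GC, with a median of 57.8%, while all tested genes had a median of 47.9%. With GC offsets and the block, the median fold change of the tubulin genes was -0.10 beside -0.02 for all genes. TUBB4B, TUBA4A and TUBG1, at 59.5%, 57.8% and 57.8% GC, came closer to 0, at log2 values of -0.13, -0.06 and -0.05. TUBA1A, TUBA1C and TUBB lie nearer the median of all genes, at 51.8%, 51.6% and 52.6% GC. They moved little, to -0.84, -0.20 and -0.05. The offset depends on GC content alone, so it is a weak check on genes near that median. On the first principal component, which held 49.1% of the variance, 8000 Pa replicate 1 lay at one end and 500 Pa replicate 3 at the other. The same libraries were the lowest for 7 and the highest for 8 of the 10 tubulin genes. Any part of that axis in the tubulin differences was not tested beyond these values.

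**Figure D4:**
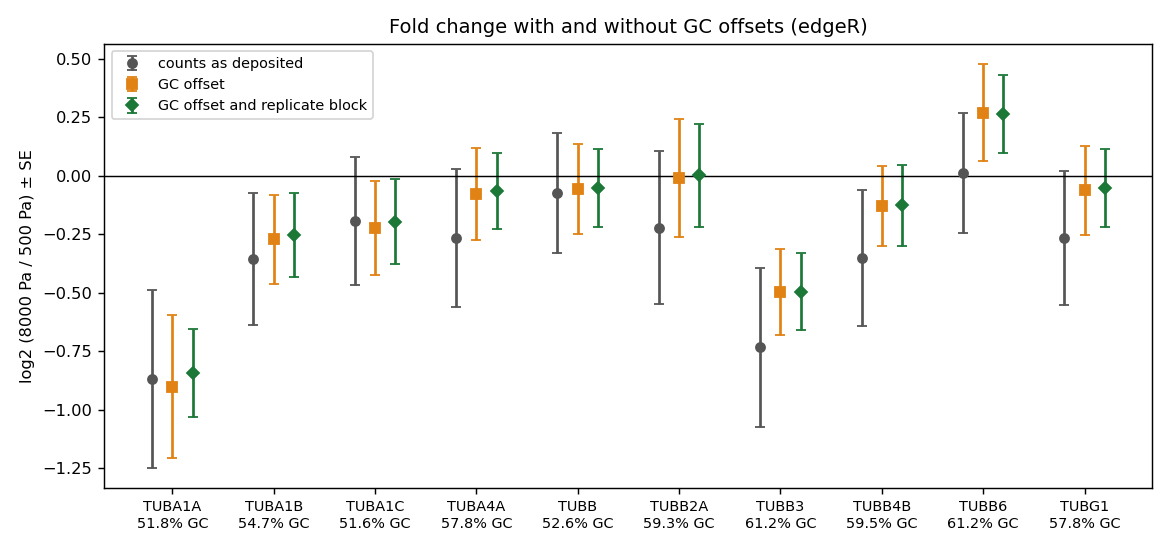
Log2 fold change of 8000 Pa over 500 Pa (± SE, edgeR) for each tubulin gene, with the GC content of its longest transcript under its name. Estimates are from the counts as deposited (grey), with offsets for GC content (orange), and with those offsets and the replicate block (green). TUBA1A lies between -0.90 and -0.84 in all 3, while TUBB3 moves from -0.73 to -0.50 and TUBB6 from 0.01 to 0.26.

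Genes whose level followed the tubulins were named by Pearson correlation of log2 CPM over the 6 libraries, among 11503 tested genes outside the family. For TUBA1B these were MEA1 (0.999), CPNE1 (0.998) and RRNAD1 (0.998). For TUBB they were VPS33B (0.988), ANXA2 (0.977) and ALDH3A1 (0.973). The libraries share their depth and base composition with every gene compared. Among the tubulin genes TUBA1B and TUBG1 were most alike (0.980), and TUBB and TUBB6 least alike (0.515).

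Of 12 further tubulin family genes in the tables, 4 passed the filter: TUBG2, whose level is given above, TUBD1, TUBE1 and TUBB1. The other 8 had at most 19 counts in any library, and among them TUBA3C and TUBA3E had no count in any library. TUBD1 and TUBE1 encode the delta- and epsilon-tubulins of centrioles. TUBD1 had 10.9 ± 7.47 CPM at 8000 Pa and 7.45 ± 1.29 CPM at 500 Pa, and TUBE1 had 6.81 ± 1.59 CPM at 8000 Pa and 6.89 ± 2.02 CPM at 500 Pa (SD, n = 3 each). TUBB1, the platelet beta-tubulin, had 3.61 ± 1.45 CPM at 8000 Pa and 3.24 ± 0.491 CPM at 500 Pa (SD, n = 3 each). None of the 4 was called with or without the block, and their median log2 fold change was 0.06 with stiffness alone.

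Genes that make tubulin usable showed no call. Of 8 folding cofactors, which assemble and take apart the alpha-beta dimer, none was called with or without the block. In both fits 6 were below 0, where 48.8% of all genes were with stiffness alone and 50.6% with the block. ARL2, the small GTPase of that cofactor complex, had 54.8 ± 23.8 CPM at 8000 Pa and 89.2 ± 29.3 CPM at 500 Pa (SD, n = 3 each), and a log2 fold change of -0.72 ± 0.24 with the block (SE; edgeR, adjusted p = 0.161). TBCC, which completes dimer release, had a log2 value of -0.37 ± 0.23 in that fit (SE; edgeR, adjusted p = 0.623). The cofactors' median with the block was -0.27, beside -0.01 for all genes, and -0.19 beside -0.02 with the GC offset and block. Within replicate pairs 1, 2 and 3 it was -0.53, -0.04 and -0.39.

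Of 13 tested genes of the chaperonin and prefoldin, which fold new tubulin chains, none was called with or without the block, and the block median was -0.07. PFDN4 had a log2 fold change of 0.32 ± 0.25 and CCT2 of 0.19 ± 0.23 there (SE; edgeR, adjusted p = 0.731 and 0.860). The gamma-tubulin ring complex, the template for new microtubules, had 10 tested genes and none called in either fit. CDK5RAP2, which tethers that complex to centrosomes, had 22.3 ± 12.4 CPM at 8000 Pa and 13.2 ± 1.98 CPM at 500 Pa (SD, n = 3 each). MZT2B, a small subunit, had 9.25 ± 1.61 CPM at 8000 Pa and 13.5 ± 2.07 CPM at 500 Pa (SD, n = 3 each). All its 8000 Pa libraries were lower, as for 2.85% of all tested genes. Its block log2 value was -0.55 ± 0.31 (SE; edgeR, adjusted p = 0.555), and -0.15 ± 0.24 with the GC offset and block (SE; edgeR, adjusted p = 0.862).

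Tubulin-modifying enzymes act mainly on tubulin tails, and none of 12 tested was called in either fit. VASH1, which removes the final tyrosine of alpha-tubulin, was near its detection limit at 17, 8 and 19 counts at 8000 Pa and 3, 10 and 1 counts at 500 Pa. Its block log2 value was 1.71 ± 0.72 (SE; edgeR, adjusted p = 0.328), and 3.20 without replicate 2 and 1.10 without replicate 1. TTLL5, a glutamate ligase for tubulin tails, had 31.9 ± 7.37 CPM at 8000 Pa and 22.8 ± 0.654 CPM at 500 Pa (SD, n = 3 each). Its groups did not overlap, as for 4.02% of all tested genes in that direction. Its block log2 value was 0.47 ± 0.26 (SE; edgeR, adjusted p = 0.538). Among 22 tested microtubule-associated and severing proteins none was called in either fit. CKAP5, a microtubule polymerase, and CLASP1, a rescue factor, had block log2 values of 0.65 ± 0.23 and 0.74 ± 0.28 (SE; edgeR, adjusted p = 0.230 and 0.261). With stiffness alone the values were 0.71 ± 0.37 and 0.53 ± 0.48 (SE; edgeR, adjusted p = 0.9999 for each). The groups overlapped for both genes, and CLASP1 was lower at 8000 Pa in the replicate 2 pair, at -0.17.

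Mitotic genes, many of which act on the microtubule spindle, lay mostly on the other side of 0 from the tubulins, except in the replicate 2 pair. Of 22 genes tested, 21 were above 0 with stiffness alone, where 48.8% of all tested genes were below it. Their median log2 fold change was 0.66, with 0.54 under the block and 0.49 with the GC offset and block. Within replicate pairs 1, 2 and 3 the median was 0.99, 0.29 and 0.38, so it was largest in the pair with the GC trend. The tubulin medians in those pairs were -0.65, 0.11 and -0.37, so in pair 2 both medians lay above 0. With the GC offset and block the tubulin median was -0.10. KIF20A, a kinesin of cytokinesis, had 330 ± 60.0 CPM at 8000 Pa and 180.0 ± 35.9 CPM at 500 Pa (SD, n = 3 each). KIF20A was higher in every 8000 Pa library, as were 4.02% of all tested genes. It was not called with stiffness alone, and was called higher with the block, at 0.88 ± 0.23 (SE; edgeR, adjusted p = 0.0348). With the block and GC offset BUB1 was called too. The difference between the tubulin and the mitotic genes was not tested.

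**Figure D5:**
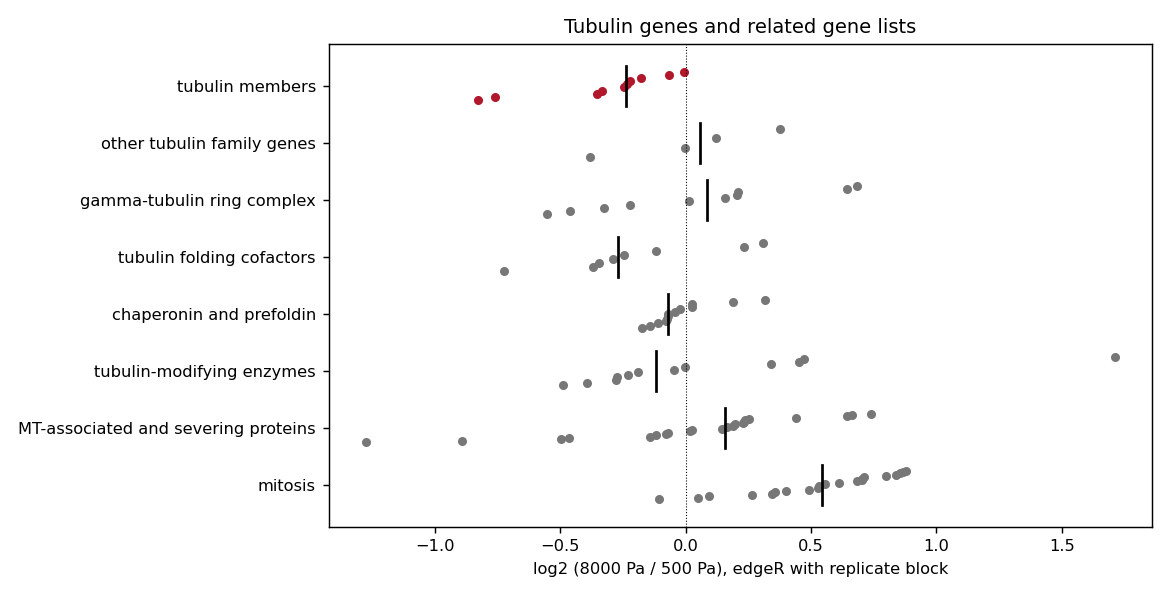
Log2 fold change of 8000 Pa over 500 Pa with the replicate number as a block, 1 point per tested gene, for the 10 tubulin genes (red) and 7 related lists (grey), with a vertical bar at each list's median. All 10 tubulin genes lie below 0, while 21 of 22 mitosis genes lie above it, and among all genes shown KIF20A alone passed an FDR of 0.05.

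The cells matched the epithelial label, with all 6 epithelial markers detected and KRT8 at 9061 ± 3224 CPM at 8000 Pa and 11249 ± 3609 CPM at 500 Pa (SD, n = 3 each). Of 11 neuronal markers, 8 had no count in any library, among them RBFOX3, DCX and STMN2. The neuronal list summed to between 8.87 and 16.7 CPM at 8000 Pa and between 12.2 and 16.0 CPM at 500 Pa, nearly all of it MAP2, so TUBA1A and TUBB3 were read here beside almost no other neuronal marker. Multiciliated markers summed to at most 2.00 CPM, with FOXJ1 at 0 and RSPH1 the most abundant. The fibroblast genes COL1A2, COL3A1 and LUM and the leukocyte genes PTPRC and CD3E were at 0, and COL1A1 and CD14 led those lists at 1.67 and 11.3 CPM over the 6 libraries. Of 6 endothelial markers TEK was at 0 and 3 were tested, all with a log2 fold change above 0. With the block 2 of them, PECAM1 and CDH5, were called higher, where 0.26% of all genes were, and neither was called with stiffness alone. PECAM1 had 219 ± 19.7 CPM at 8000 Pa and 110.9 ± 30.4 CPM at 500 Pa (SD, n = 3 each), and a block log2 value of 1.01 ± 0.23 (SE; edgeR, adjusted p = 0.00537). The list summed to between 213 and 258 CPM at 8000 Pa and between 100.2 and 156 CPM at 500 Pa, and its part in the tubulin values was not tested.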

How the data were processed

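RNA-seq counts from 6 libraries, 3 at 8000 Pa and 3 at 500 Pa, were analysed, grouped by the stiffness in their labels. For each library the authors deposited raw counts for 26484 gene symbols, made with HISAT2 2.1.2, HTSeq 0.11.4 and GRCh38 per the submitters' processing notes, which also name limma and DESeq2. The authors' TMM log2 values, per the file headers, were used only as a check, and for the 10 genes the largest gap to a TMM log2 CPM recomputed from the counts was 0.0893. Not given in the sources used here are strandedness, annotation release and the counting of reads with several matches.

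The filter was filterByExpr (min.count 10, min.total.count 15), and 11517 genes passed it. Testing used edgeR 4.0.16 (R 4.3.3) with TMM scaling and the quasi-likelihood F test, stiffness alone as the main design, with Benjamini-Hochberg adjustment over all tested genes at an FDR of 0.05. DESeq2 1.42.0, its size factors, no filter, the replicate block, GC offsets from a spline with 5 degrees of freedom, and leaving out libraries were alternatives. The fit was tested on simulated data. Intervals on counts are not printed. Errors marked SD are the spread between libraries. Errors marked SE belong to the edgeR fold change and were computed from it and the F statistic of its test.

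The labels number the replicates and call them biological, without saying what a shared number means. Deviations from the group means correlated within same-numbered pairs at 0.409, 0.184 and 0.516, each over 0.1, while 8000 Pa replicate 1 with 500 Pa replicate 2 gave 0.199. That last value also passed the 0.1 limit and exceeded the same-numbered value of 0.184. The check therefore cannot settle whether the numbers pair libraries, and the block was fitted only as an alternative to stiffness alone. Replicates differed by 30.5 to 104 times the chi-square expected from counting, which is more than sampling noise.

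Lengths and GC content came from GENCODE 29 on GRCh38, and the symbols of all 10 genes matched. Length for levels per kb was the union of exons, and GC content was that of the longest transcript. The coding tails printed are from GENCODE 29 and promoters from RefSeq, GRCh38.p14, at the most downstream start where several were listed. The members and lists were chosen with earlier results of these data known. Named genes were the 10 members, family genes passing the filter, up to 3 genes of smallest p among those called in each related list or otherwise 2 of smallest p with the block, the 3 genes most correlated with TUBA1B and with TUBB, and the most abundant gene of each marker list. BUB1, FLOT1, IER3 and the other genes named beside these were chosen after their values were seen. Some withheld items are not reported here.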

Additional observations from a re-analysis of the deposited data

How the results depend on the processing

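With stiffness alone edgeR called 0 of all tested genes. No filter on low counts gave 8, DESeq2 without block 7, edgeR with the replicate block 61, DESeq2 with it 42, and GC offset with it 84, while leaving out 1 library gave 0 to 1 and leaving out replicate 1, 2 or 3 with the block gave 38, 81 and 12. Of the tubulin genes 0 were called, 1 (TUBA1A) with GC offset and replicate block, and 0 to 1 when libraries were left out, the 1 without replicate 2 under the block. Related lists gave 0, 1 with the replicate block in edgeR, 1 in DESeq2, 2 with GC offset and block, and 0 to 1 when libraries were left out. Beyond KIF20A of those lists, the block also called the markers PECAM1 and CDH5, and it changed no other call among the genes named. The direction turned for TUBB2A with GC offset and block (0.0021), TUBB6 with the block (-0.0058, DESeq2 -0.013), TUBB1 with GC offset (-0.014, with block -0.030), and TUBE1 with no filter (0.0085) and GC offset (0.0090), and the cause was not tested. Leaving out 1 library gave log2 ranges of -0.36 to 0.084 for TUBA1C, -0.20 to 0.051 for TUBB, -0.15 to 0.12 for TUBB6, -0.48 to 0.043 for TUBG1, -0.23 to 0.36 for TUBB1, -0.15 to 0.96 for TUBD1, -0.24 to 0.26 for TUBE1 and -0.16 to 0.53 for CCT2. With the block, leaving out replicate 1 turned TUBB (0.078), TUBB2A (0.030), TUBB1 (-0.071), TUBD1 (-0.026), TUBE1 (0.057) and CCT2 (-0.013). Replicate 2 left out so turned TUBB6 (-0.0014), and replicate 3 left out turned TUBB (0.034), TUBB6 (-0.080) and TUBE1 (0.13). In all these fits TUBA1A (-1.18 to -0.32), TUBB3 (-1.01 to -0.37), the tubulin median (-0.49 to -0.04) and, over single libraries, the summed level (-0.50 to -0.09) stayed below 0, nearest to it without 500 Pa replicate 3. Scarce genes such as TUBB2A and VASH1 are limited by depth.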
